A study of Mus musculus with 29 samples.

Results

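Antibody (immunoglobulin, Ig) transcripts were followed through 29 mouse bone marrow libraries from 8 groups. The members were all genes whose symbol matched a fixed pattern for heavy-chain, kappa and lambda genes and the joining chain gene Jchain, which selected 254 of 38924 genes in the table of stem and progenitor cells and 49 of 18194 genes in the table of niche cells, all 49 being among the 254. One match, Ighmbp2, encodes a helicase and no antibody chain, and it was left out of every sum. LSK cells (lineage-negative, Sca-1+, Kit+ blood stem and progenitor cells) had been taken after transplantation from niches labelled WT (6 libraries) or Wnt5a (5 libraries), the latter haploinsufficient for the secreted signal WNT5A. Endothelial (EC), osteoblastic (OBC) and mesenchymal (MSC) cells of the niche had 3 WT and 3 Wnt5a libraries each. All 29 samples carry the strain label 129Ly5.1, and neither an age nor the number of animals per library is given in the sources used here. The genotype of an LSK library is that of the niche that held the transplanted cells. Nothing in the labels says that libraries of a group came from separate animals, so p-values measure the spread between these libraries, which may be technical. LSK libraries held 1254553 to 5775459 reads from Smart-seq2, which covers whole transcripts, and niche libraries held 10635 to 117989 unique molecular identifiers (UMIs) from a protocol that counts transcript ends. Levels are therefore compared within a table, and a difference of makeup between the tables cannot be told apart from the protocol. The Wnt5a gene had 0 to 5 reads per LSK library, which checks no label, and it has no row in the niche table analysed here.

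An antibody is built of 2 kinds of chain, heavy and light, each with a variable part that binds antigen and a constant part. The variable exon is assembled in developing B cells by joining 1 variable (V) segment to a joining (J) segment, with a diversity (D) segment between them in heavy chains. The heavy constant gene in use sets the class: Ighm gives IgM, Igha gives IgA, the Ighg genes give IgG and Ighe gives IgE. Igkc and the Iglc genes are the constant parts of kappa and lambda light chains, and Jchain links IgM or IgA into polymers. Plasma cells, the antibody-secreting end stage of the B lineage, reside in bone marrow and carry very large amounts of these transcripts. LSK, endothelial, osteoblastic and mesenchymal cells are not known to secrete antibody.

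Of the 253 genes without Ighmbp2 in the LSK table, 139 lie on chromosome 12 (heavy chain), 109 on chromosome 6 (kappa), 4 on chromosome 16 (lambda) and 1, Jchain, on chromosome 5, in the GRCm38 annotation of GENCODE. They comprise 214 V genes (108 heavy, 103 kappa and 3 lambda), 20 D, 4 heavy J and 5 kappa J segments, 7 heavy constant genes, Igkc, Iglc2 and Jchain. Of these, 232 had at least 1 read, 21 were at 0 in every library and 120 passed the filter on low counts. The niche table held 48 of them, of which 18 had at least 1 UMI, 30 were at 0 throughout and 3 passed the filter: Igha, Igkc and Jchain. Constant genes Ighd, Iglc1 and Iglc3 were not analysed here.

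V genes come in families of close relatives, so reads of 1 member may be counted for another. The following pair is shown because Igkv6-15 led 2 LSK libraries and Igkv6-23 was among the V genes with the most reads. Each line is the 3′ part of the longest annotated exon, 5′ to 3′ on the coding strand of GRCm38 (reference strain C57BL/6J), and capitals mark the 16 bases where the pair differ.
Igkv6-15 (chr6:70406469-70406765, minus strand): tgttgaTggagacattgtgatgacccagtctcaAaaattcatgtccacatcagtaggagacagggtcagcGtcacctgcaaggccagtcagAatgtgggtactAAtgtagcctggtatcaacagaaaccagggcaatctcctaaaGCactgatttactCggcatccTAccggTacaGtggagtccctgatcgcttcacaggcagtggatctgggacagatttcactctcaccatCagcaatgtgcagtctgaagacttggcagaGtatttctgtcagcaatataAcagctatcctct
Igkv6-23 (chr6:70260409-70260705, minus strand): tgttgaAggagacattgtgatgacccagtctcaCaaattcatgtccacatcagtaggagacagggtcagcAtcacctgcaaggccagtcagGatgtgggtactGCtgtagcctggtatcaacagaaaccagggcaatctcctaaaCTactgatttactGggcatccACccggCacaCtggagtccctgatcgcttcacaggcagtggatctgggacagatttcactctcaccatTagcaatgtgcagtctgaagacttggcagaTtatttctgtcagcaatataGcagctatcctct
Igkv6-15 held 29.4% of the kappa V reads of LSK WT replicate 4 and Igkv6-23 held 1.43% there, so the counts of this pair differed widely in that library. Ighv11-2 led the heavy V genes of 2 libraries, and it differs from Ighv11-1 by only 4 bases in the same window, again in capitals.
Ighv11-2 (chr12:114048241-114048537, minus strand): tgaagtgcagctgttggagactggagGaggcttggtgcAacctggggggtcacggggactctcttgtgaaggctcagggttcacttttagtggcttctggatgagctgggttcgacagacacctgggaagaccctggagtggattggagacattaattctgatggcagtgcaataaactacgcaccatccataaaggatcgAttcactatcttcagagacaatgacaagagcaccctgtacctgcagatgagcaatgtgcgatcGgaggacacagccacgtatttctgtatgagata
Ighv11-1 (chr12:113981879-113982175, minus strand): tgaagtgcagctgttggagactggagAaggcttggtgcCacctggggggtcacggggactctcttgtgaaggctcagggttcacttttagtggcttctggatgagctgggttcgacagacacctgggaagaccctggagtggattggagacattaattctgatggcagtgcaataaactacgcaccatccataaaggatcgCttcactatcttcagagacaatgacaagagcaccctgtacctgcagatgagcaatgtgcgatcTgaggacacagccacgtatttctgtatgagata
Counts of this second pair are uncertain as to which gene they belong. How sequence differences between the labelled strain and the reference act on the counts of any V gene was not tested.

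Ig genes took up 0.311% to 10.2% of LSK reads. At this depth the exact 95% interval (Clopper-Pearson, which covers counting error only) ran from 0.305% to 0.317% for the lowest library and from 10.1% to 10.2% for the highest. In LSK WT replicates 1 to 6 the shares were 1.48%, 0.861%, 2.51%, 0.311%, 0.694% and 2.29% (mean 1.36% ± 0.894, SD, n = 6). In LSK Wnt5a replicates 1 to 5 they were 0.360%, 0.514%, 0.633%, 1.34% and 10.2% (mean 2.60% ± 4.25, SD, n = 5). The medians were 1.17% in WT and 0.633% in Wnt5a, in the reverse order of the means, and 1 Wnt5a library stood apart from the others. Without that library, replicate 5, the Wnt5a mean was 0.711%, and 4 of the 4 remaining values lay inside the WT range. The ranges of the groups overlapped.

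MSC libraries stood highest in the niche, at 0.321%, 0.142% and 0.217% in WT and 0.230%, 0.327% and 0.189% in Wnt5a. OBC libraries held 0.0307%, 0.0101% and 0.0940% in WT and 0.0224%, 0.0398% and 0.0947% in Wnt5a, which rests on 3 to 13 UMIs per library. In EC the shares were 0.0132%, 0.00420% and 0.0195% in WT and 0.0701%, 0.0318% and 0.0490% in Wnt5a. All 6 MSC values lay above all 12 OBC and EC values. EC was the only niche population whose genotypes did not overlap, every Wnt5a library lying above every WT library. The EC shares rest on 11, 4 and 23 UMIs in WT and 13, 34 and 28 in Wnt5a. The exact intervals of EC WT replicate 15 (0.0124% to 0.0292%) and EC Wnt5a replicate 17 (0.0221% to 0.0445%) overlapped. The separation of the summed EC shares was not tested, so it is a description only.

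**Figure D1:**
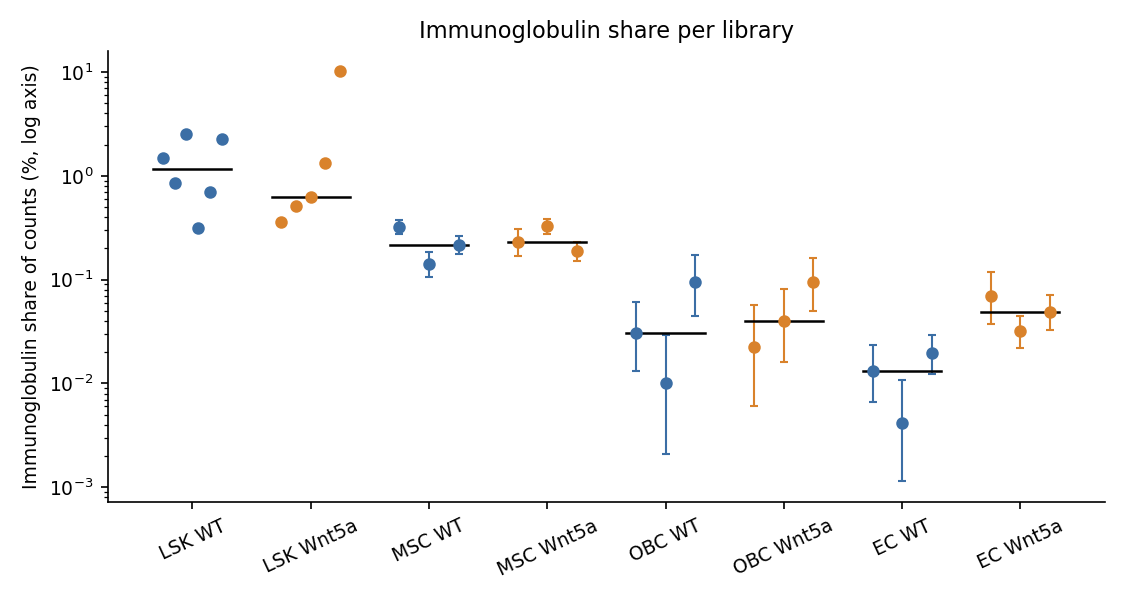
Share of all counts assigned to Ig genes in each of 29 libraries (percent, log axis), by group. Points are libraries, whiskers exact 95% Clopper-Pearson intervals and black lines group medians; LSK Wnt5a replicate 5 stands at 10.2%, and the MSC libraries, at 0.142% to 0.327%, lie above the OBC and EC libraries.

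The Ig reads of LSK libraries were a mixture of all gene classes. V genes made up a median of 35.3% of them (9.31% to 53.4%, n = 11), light constant genes 21.0%, Jchain 19.7%, heavy constant genes 16.2% and J segments 3.66%. LSK Wnt5a replicate 1 had the smallest V share, 9.31%, and replicate 5 of the same group the largest. Jchain made up 15.4% to 20.5% of Ig reads in WT and 18.6% to 27.4% in Wnt5a. Among niche UMIs the heavy constant genes led, with a median of 57.3% (25% to 100%, n = 18), and V genes had a median of 0, with 16 of 764 Ig UMIs in all.

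Constant genes can be set against each other only per length. Over the 11 LSK libraries the median level per kilobase of exon, in CPM (read counts scaled to a common library total, here with TMM factors), was 2515 for Igkc, 660 for Jchain, 622 for Iglc2, 339 for Igha and 320 for Ighm. IgG genes were far lower, at 13.1 for Ighg2b, 5.78 for Ighg2c, 0.964 for Ighg3 and 0.109 for Ighg1, and Ighe had 4 reads in all. Over libraries the level ran from 42.7 to 1987 for Igha and from 86.3 to 1182 for Ighm, so the ranges overlapped. Igha and Ighm were not compared by a test within libraries.

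The question of the LSK comparison is whether progenitors regenerated in a WNT5A-poor niche differ from those in a WT niche. No Ig gene passed the test in edgeR. Among the constant genes tested, the largest fitted differences were those of the IgG genes Ighg2c and Ighg2b, with higher values in Wnt5a, and Ighg3, with higher values in WT. Of the V genes, Igkv14-130 (7.64, SE 2.19), Igkv1-88 (5.31, SE 2.02) and Igkv3-1 (4.57, SE 1.87) had larger fitted differences, with larger errors. Ighg2c, the IgG2c class of the reference strain, had 8, 2, 23, 2, 0 and 22 reads in WT replicates 1 to 6 and 129, 30, 290, 83 and 126 in Wnt5a replicates 1 to 5. In CPM the WT libraries lay between 0 and 7.66 and the Wnt5a libraries between 8.50 and 176, so the groups did not overlap, by a narrow gap. The share of all genes whose groups did not overlap is not given here, so this is a description only. The log2 difference, Wnt5a minus WT, was 4.50 (SE 0.86), with an adjusted p of 0.0564 by edgeR's quasi-likelihood test. Other strains than the reference carry an Ighg2a gene in that place. Whether the labelled strain is one of these was not checked, and how reads from such an allele were counted was not tested.

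Ighg2b, the IgG2b class, had 11, 28, 314, 0, 3 and 101 reads in WT and 178, 43, 588, 208 and 1590 in Wnt5a. Its ranges overlapped, at 0 to 49.8 CPM against 12.2 to 694, with a log2 difference of 3.80 (SE 1.28, edgeR adjusted p = 0.176). For Ighg3, the IgG3 class, WT counts were 1, 3, 342, 28, 630 and 108 and Wnt5a counts 0, 2, 4, 1 and 27. The difference of -4.0 (SE 1.53, edgeR adjusted p = 0.214) went with 3 WT libraries (replicates 3, 5 and 6) that lay above every Wnt5a library, and the groups overlapped. Ighg1 reached 198 and 242 reads in Wnt5a replicates 1 and 5 and at most 12 in every other library, and it did not pass the filter on low counts.

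Ighm, the IgM class with which every B cell starts, stood at 914, 457, 1741, 604, 1049 and 2229 CPM in WT and at 333, 367, 500, 163 and 1223 CPM in Wnt5a. Of the Wnt5a libraries, 3 lay below the lowest WT library, and the difference was -1.17 (SE 0.55, edgeR adjusted p = 0.280). Igha ranged from 114 to 1258 CPM in WT (median 1044) and from 392 to 5301 in Wnt5a (median 762). Its fitted difference was 1.12 (SE 0.83, edgeR adjusted p = 0.505), opposite in sign to the medians. The light-chain genes Igkc (1.13, SE 0.92) and Iglc2 (0.75, SE 0.70) and Jchain (1.39, SE 0.90) likewise did not pass, with edgeR adjusted p of 0.546, 0.596 and 0.437.

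**Figure D2:**
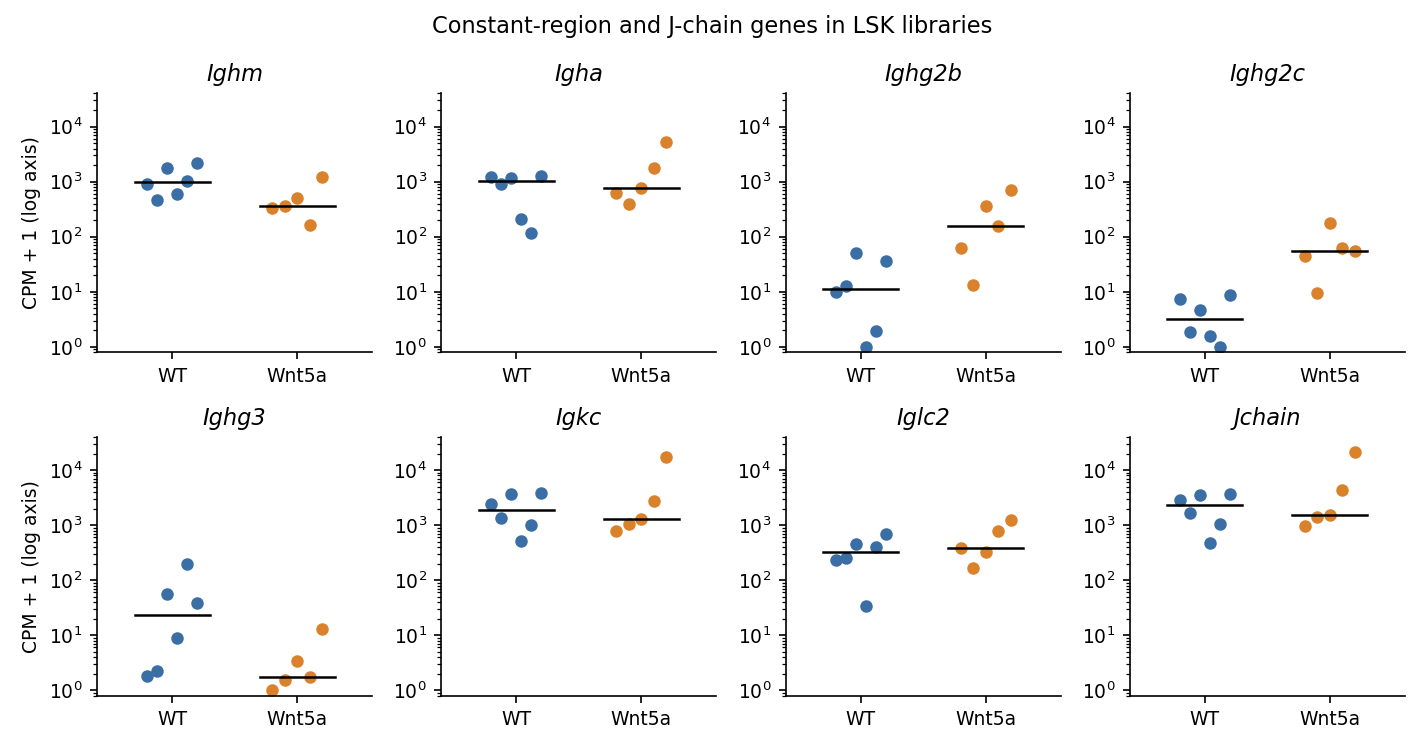
Levels of 8 constant-region and J-chain genes in LSK libraries, as TMM-scaled CPM plus 1 (log axis). Points are libraries (6 WT, 5 Wnt5a) and black lines medians. Only for Ighg2c, of the genes drawn, do the groups not overlap, at 0 to 7.66 against 8.50 to 176 CPM. The share of all genes without overlap is not given here.

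Over all members, 0 of 120 tested passed in edgeR, beside 0.0229% of all genes tested, and 7 had an unadjusted p under 0.05 (5.83%, beside 18.4% of all genes): Ighg2b, Ighg2c, Ighg3, Ighv1-59, Igkv1-88, Igkv14-130 and Igkv3-1. DESeq2 called 3 of 144 members, Ighg2b, Ighg2c and Igkv4-50, beside 4.53% of all genes, and all 3 were higher in Wnt5a, beside 2.53%. Fitted differences were positive for 97 of the 120 members (80.8%, beside 51.7% of all genes), with a median of 1.02 against 0.02 over all genes. Without LSK Wnt5a replicate 5, 18 of 120 members were positive (15%, beside 50.1% of all genes). In that fit 7 of 120 members passed, beside 8.32% of all genes: Ighg2c higher (4.57, SE 0.90, edgeR adjusted p = 0.0122) and Ighm lower (-1.77, SE 0.43, edgeR adjusted p = 0.0277), with Ighj4, Ighv2-4, Ighv11-1, Ighv11-2 and Igkv1-122 lower. Wnt5a replicates 4 and 5 also carry title numbers of another form than the other 9 LSK libraries. With both left out, 9 of 135 members were positive (6.67%, beside 49.1%) and 2 passed, Ighg2c higher and Igkv1-122 lower, beside 6.34% of all genes.

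Heavy-chain classes were also compared as shares of heavy constant reads, in which the amount of Ig in a library cancels. IgM made up 43.1%, 33.3%, 57.4%, 73.6%, 77.2% and 62.4% of heavy constant reads in WT replicates 1 to 6, and 29.8%, 47.0%, 27.8%, 7.68% and 16.5% in Wnt5a replicates 1 to 5. In 4 of 5 Wnt5a libraries the IgM share lay below the lowest WT share, and Wnt5a replicate 2 lay inside the WT range. IgA made up 8.39% to 65.8% in WT (median 37.1%) and 42.4% to 82.0% in Wnt5a (median 54.7%). IgG made up 0.784%, 0.996%, 3.61%, 1.04%, 14.4% and 2.33% in WT and 15.5%, 2.76%, 29.7%, 10.3% and 11.7% in Wnt5a. The 14.4% of WT replicate 5 was nearly all IgG3, whereas IgG2b led the IgG reads of 4 of the 5 Wnt5a libraries and IgG1, with 6.06%, those of replicate 1. IgE had at most 2 reads in any library. These shares were given no test, since each is a sum over members. Reads were not scaled by length here, and merged exons span 2678 bases in Ighg2b, 1326 in Ighg2c, 2668 in Igha and 1886 in Ighm. Longer genes take larger shares of reads, so the order of classes within a library is an order of reads only.

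**Figure D3:**
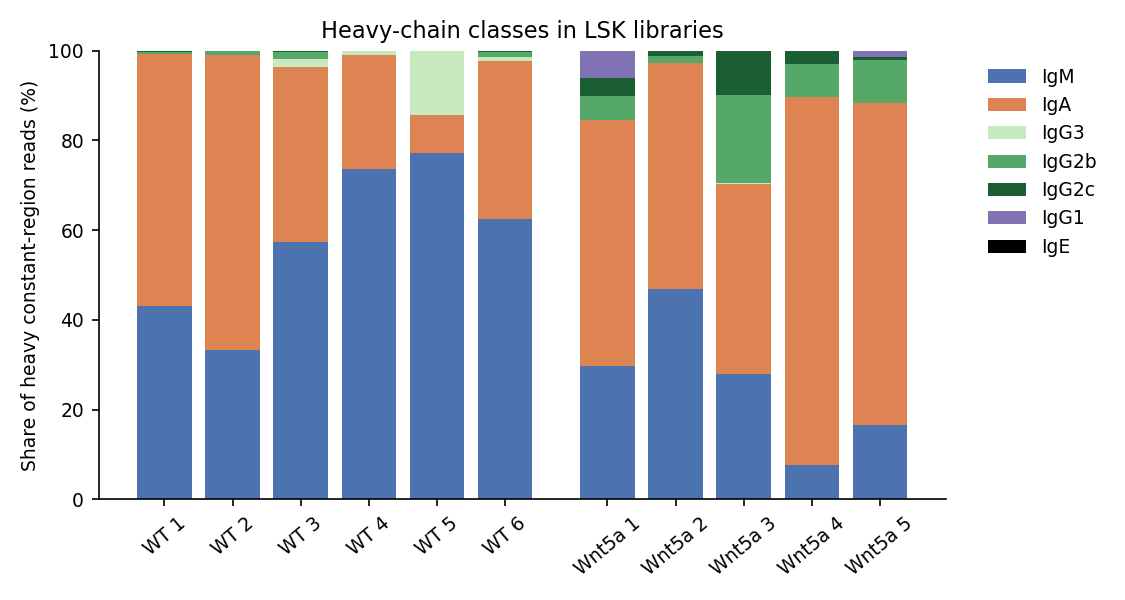
Share of heavy constant-region reads by class (percent, not scaled by gene length) in each LSK library, stacked to 100. IgM takes 33.3% to 77.2% in the 6 WT libraries and 7.68% to 47.0% in the 5 Wnt5a libraries; IgG2c is at most 0.299% in WT and 0.744% to 9.77% in Wnt5a.

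Lambda is the minor light chain of the mouse, and Iglc2 was the only lambda constant gene analysed. Iglc2 made up 8.81%, 15.8%, 10.8%, 6.09%, 28.2% and 15.1% of the reads of Igkc and Iglc2 in WT and 32.6%, 13.5%, 19.7%, 22.7% and 6.60% in Wnt5a. Reads of Iglc1 and Iglc3 are not in these shares, which are therefore not the whole lambda share. The groups overlapped. Lambda V genes took a smaller share of light V reads than Iglc2 took of light constant reads in 10 of 11 libraries, and Wnt5a replicate 5 was the exception (7.26% against 6.60%). Iglv1 led the lambda V reads of 9 libraries, with 44.1% to 74.1% of them, Iglv2 those of WT replicate 6 and Iglv3 those of WT replicate 5, where Iglv3 held 772 of 1225 reads.

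Kappa J segments sit between the kappa V genes and Igkc, and 4 of the 5 are functional in the mouse. The annotated segments are given because their reads were split between them differently in each library, and capitals mark the longest run of bases that the 4 share.
Igkj1 (chr6:70722562-70722599, plus strand): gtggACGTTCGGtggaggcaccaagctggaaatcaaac
Igkj2 (chr6:70722916-70722958, plus strand): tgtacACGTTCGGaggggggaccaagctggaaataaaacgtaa
Igkj4 (chr6:70723548-70723585, plus strand): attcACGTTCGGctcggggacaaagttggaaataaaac
Igkj5 (chr6:70723886-70723927, plus strand): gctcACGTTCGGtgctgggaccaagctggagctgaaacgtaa
The shared run spans the start of the phenylalanine and glycine motif that joining segments add to a variable domain. Igkj3, the segment that is not functional, had at most 0.0332% of kappa J reads in any library. Igkj5 ranged from 13.5% to 59.1% in WT and from 18.5% to 32.9% in Wnt5a. WT replicate 4 held the 59.1%, together with the smallest Igkj2 share, 3.65%. Igkj2 led in 4 libraries, WT replicates 3, 5 and 6 and Wnt5a replicate 2, the last with 49.7%.

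V reads were spread over many genes, and each library had its own leaders. Of the 214 V genes, 124 to 197 had at least 1 read per library, at V totals of 987 to 137787 reads. Kappa V genes held 235782 reads, lambda V genes 22251 and heavy V genes 20266. With at least 3 reads required, 18 of 103 kappa V genes and 6 of 108 heavy V genes were found in all 11 libraries, while 4 kappa and 12 heavy V genes were found in none. The leading V gene was a different one in most libraries, 9 genes leading 11 libraries.

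In WT replicates 1 to 6 the leaders were Igkv4-63 (4.77% of V reads), Igkv1-135 (7.80%), Iglv1 (5.82%), Igkv6-15 (19.5%), Iglv3 (10.8%) and Igkv14-126 (8.79%). In Wnt5a replicates 1 to 5 they were Iglv1 (10.7%), Igkv8-30 (8.72%), Igkv3-4 (5.98%), Igkv10-96 (6.31%) and Igkv6-15 (4.88%). Evenness was measured with the inverse Simpson number, the number of equally used genes that would give the same concentration. It was lowest in WT replicate 4, at 12.8, where the 5 leading genes held 55.7% of V reads. WT replicate 5 followed with 17.1 and 44.3%, and the other 9 libraries lay between 26.0 and 49.5. Thinned to the 987 V reads of the shallowest library, the expected number of V genes was 72 in WT replicate 5, 95.7 to 120 in the other WT libraries and 108 to 127 in Wnt5a. V reads are not independent molecules, so a leading share may stem from few transcripts.

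**Figure D4:**
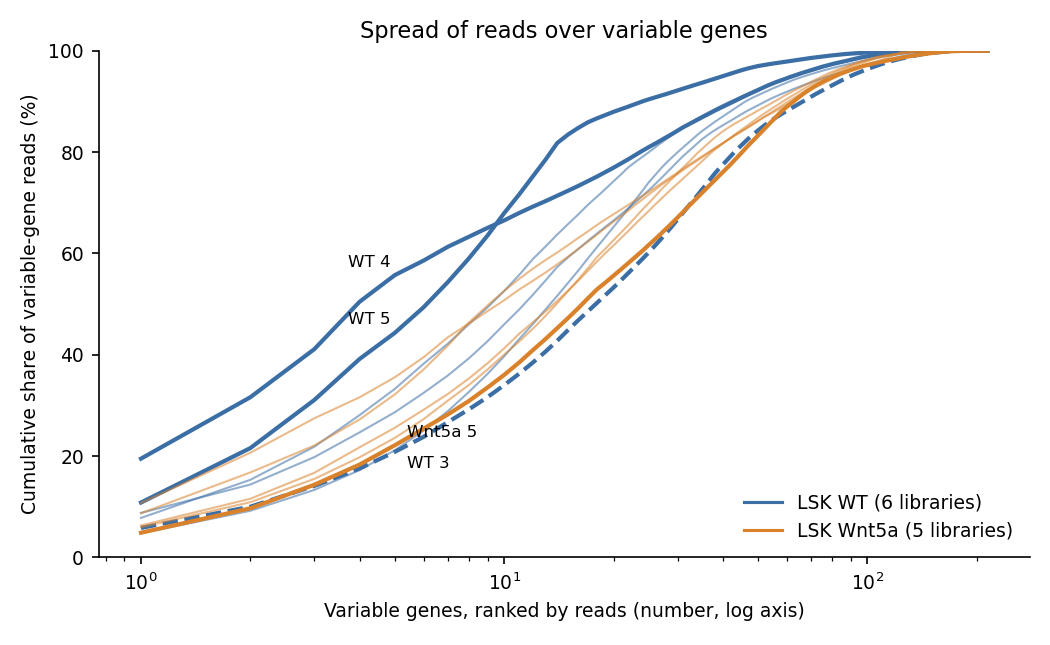
Cumulative share of V reads (percent) held by the V genes of each LSK library, ranked from the most to the least read (log axis). Blue lines are 6 WT and orange lines 5 Wnt5a libraries, with the 4 named in the plot drawn thick (WT 3 dashed); the 5 leading genes hold 55.7% in WT replicate 4 and 44.3% in WT replicate 5, but 20.8% in WT replicate 3 and 22.1% in Wnt5a replicate 5.

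Ighv11-2 and Igkv14-126 are known as partners in IgM of B-1 cells that bind phosphatidylcholine, and both were among the leaders of the same libraries. These genes are named here after their values were seen. Ighv11-2 led the heavy V reads of WT replicates 5 and 6, with 9.53% and 10.7%, where Igkv14-126 led the kappa V reads with 14.4% and 11%. In the other 9 libraries Ighv11-2 held at most 2.65% of heavy V reads. Igkv14-126 also led the kappa V reads of Wnt5a replicate 1, with 15.6% of 630 reads, where Ighv11-2 had 3 of 145 heavy V reads. Of the Wnt5a libraries, replicate 5 alone had more than 3 reads of Ighv11-2, with 67. Igkv4-50, called by DESeq2, had 908 of its Wnt5a reads in replicate 5, and Igkv14-130 had 3652 there and at most 62 in any other library.

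Markers of the stem cell and of the B lineage were both read in LSK libraries. Kit, the receptor used in the sort, stood at 286 to 564 CPM. The B-cell list (13 genes) summed to 157 to 340 CPM in WT and 117 to 385 in Wnt5a, and the plasma-cell list (14 genes) to 760 to 1472 and 535 to 2591. Of the 13 B-cell genes, 5 had reads in all 11 libraries, among them the receptor subunit Cd79b (20.6 to 126 CPM) and the surface protein Cd37 (47.5 to 135 CPM). Pax5, the master factor of B cells, had reads in 1 of 6 WT and 3 of 5 Wnt5a libraries and at most 5 in any. Of the 14 plasma-cell genes, 11 had reads in all 11 libraries. Sdc1 and Prdm1 were among them, at 2.57 to 27.5 and 4.82 to 48.4 CPM. None of the 6 tested B-cell genes and none of the 14 plasma-cell genes passed the LSK test in edgeR (1 and 0 with an unadjusted p under 0.05). Wnt5a replicate 5, which has the most Ig, had the highest level of the 11 libraries for 13 of the 14 plasma-cell genes, such as Mzb1 (319 CPM, a chaperone of IgM assembly), Tnfrsf17 (117 CPM, the plasma-cell survival receptor BCMA) and Xbp1 (631 CPM, the secretory regulator). Of the 13 B-cell genes it had the highest level for 3, among them Cd79a (131 CPM, a receptor subunit), and 0 reads for 5, among them Ms4a1, Pax5 and Cd22. The part of admixed B-lineage cells in the Ig counts was not tested.

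Among the genes outside the members whose level followed the summed Ig CPM most closely over the 11 LSK libraries were Ly6d, Pou2af1, Pls1, St6gal1, Cd79a, Eaf2 and Trp53inp1, with Spearman's rho from 0.836 to 0.909, of 11120 genes ranked. Pou2af1 encodes the B-cell coactivator of octamer factors, which drive Ig promoters. All of these values share library and depth, and they are descriptions only. The 6 ranked genes of the early B lineage, the stage in which Ig genes are being joined, had rho of -0.65 (Rag2), -0.56 (Igll1), -0.23 (Il7r), -0.11 (Dntt), 0.16 (Ebf1) and 0.68 (Vpreb3), in both directions. Of the other pathway lists, none of 11 tested V(D)J recombination genes, 19 antibody secretion genes, 3 octamer factors or 8 B-cell receptor signalling genes passed in edgeR (2, 3, 0 and 1 with an unadjusted p under 0.05).

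In the niche, Ig transcripts were highest in the MSC libraries, and IgA was their main class. Igha had 71, 32 and 64 UMIs in MSC WT and 27, 103 and 47 in MSC Wnt5a. It had 2 to 9 UMIs in each OBC library and 1 to 10 in each EC library. On the CPM scale, here of UMIs, the lowest MSC library (794) lay above the highest OBC (675) and EC (388) libraries. The share of all genes whose MSC libraries all lay above the others is not given here, so this is a description only. Igha was higher in MSC than in EC by 4.10 on the log2 scale (SE 0.41, edgeR adjusted p = 7.67e-09) and higher than in OBC by 2.52 (SE 0.44, edgeR adjusted p = 4.53e-05).

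Igkc had 39, 4, 16, 5, 18 and 10 UMIs in the 6 MSC libraries, 0 to 3 in OBC and 1 to 9 in EC. It was higher in MSC than in EC by 2.59 (SE 0.46, edgeR adjusted p = 5.45e-05) and than in OBC by 1.87 (SE 0.59, edgeR adjusted p = 0.0107). Jchain had 25, 5, 5, 4, 15 and 14 UMIs in MSC, 0 to 3 in OBC and 2 to 6 in EC. It passed against EC at 2.23 (SE 0.51, edgeR adjusted p = 0.00233) and not against OBC at 1.33 (SE 0.62, edgeR adjusted p = 0.0904). So 3 of 3 tested members passed between MSC and EC, beside 3.55% of all genes, and 2 of 3 between MSC and OBC, beside 32.3%. Each of the 3 could pass the filter through its MSC libraries, so being tested was tied to being high in MSC. Set beside the shares of all genes, these counts therefore support no excess of members. They also support nothing about the 45 members that did not pass the filter. Without MSC WT replicate 1, the library with the most UMIs of Igkc and Jchain, Jchain no longer passed against EC (1.59, edgeR adjusted p = 0.129) nor Igkc against OBC (1.41, edgeR adjusted p = 0.0951). Leaving out OBC WT replicate 8 also ended the Igkc call against OBC (adjusted p = 0.0570 in edgeR).

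OBC held more Igha than EC by 1.58 (SE 0.56, edgeR adjusted p = 0.0204), 1 of 3 members beside 48.0% of all genes. That call was lost in DESeq2 and without the filter. It was also lost when either OBC library with the most Ig (WT replicate 9 or Wnt5a replicate 12) was left out, or replicate 17 of EC Wnt5a. Igkc (0.72, SE 0.70) and Jchain (0.91, SE 0.71) did not pass between OBC and EC, with edgeR adjusted p of 0.396 and 0.289.

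**Figure D5:**
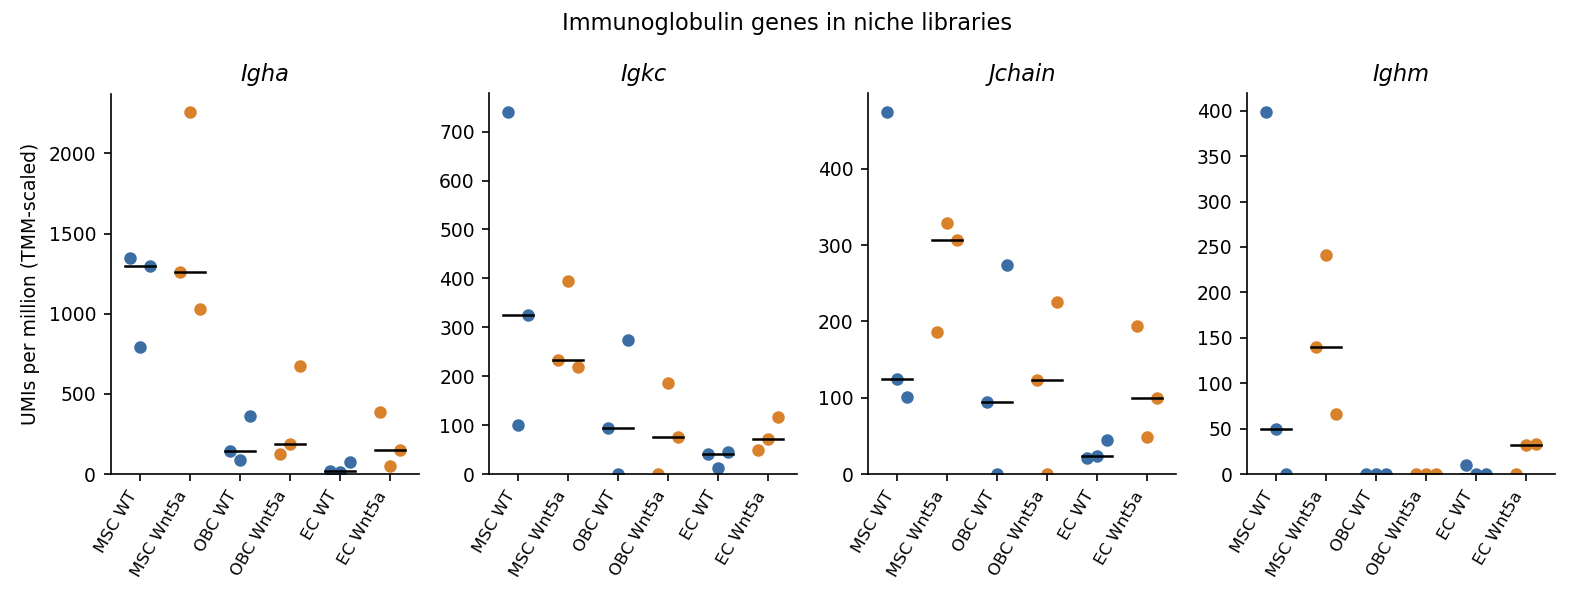
Levels of Igha, Igkc, Jchain and Ighm in the 18 niche libraries (CPM of UMIs, TMM-scaled; each panel has its own axis). Points are libraries, 3 per group, and black lines medians; all 6 MSC libraries exceed all others for Igha, and Ighm has 0 UMIs in every OBC library. The share of all genes separated in this way is not given here.

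Of heavy constant UMIs summed over a population, Igha made up 81.5% in MSC (344 of 422, exact 95% interval 77.5% to 85.1%), 92.0% in OBC (23 of 25, 74.0% to 99.0%) and 70.6% in EC (36 of 51, 56.2% to 82.5%). Ighm made up 9.48% in MSC and 13.7% in EC and had 0 of 25 UMIs in OBC, where the exact interval reaches 13.7%. Of the 40 MSC UMIs of Ighm, 21 came from MSC WT replicate 1. IgG2b gave 20 UMIs in MSC, IgG1 11, IgG3 6 and IgG2c 1. IgE had 0 of 422 UMIs in MSC, which allows a share of up to 0.870%.

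No Ig gene passed the test between genotypes in any niche population. In EC, 0 of 3 tested members passed in edgeR, beside 0.364% of all genes, with 1 at an unadjusted p under 0.05, beside 8.10%. Igha had 2, 1 and 10 UMIs in EC WT and 8, 6 and 9 in EC Wnt5a. Its EC difference was 1.73 (SE 0.71, edgeR adjusted p = 0.498). It passed when EC WT replicate 15 was left out (edgeR adjusted p = 0.0393), beside 1.98% of all genes. Neutrophil genes were also higher in the EC Wnt5a libraries: Ngp, S100a8, S100a9 and Ltf were the 4 genes of 1099 that passed there. The neutrophil list (9 genes) summed to 282 to 459 CPM in EC WT and 1324 to 2381 in EC Wnt5a. This was not particular to EC. The list summed to 1042 to 1339 CPM in MSC WT and 2421 to 3907 in MSC Wnt5a, and to 3109 to 5494 in OBC WT and 6152 to 10026 in OBC Wnt5a. In MSC and OBC the Ig shares of the genotypes overlapped. The part of neutrophil genes in the Ig values was not tested.

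In OBC 0 of 3 passed in edgeR, beside 1.0% of all genes, in MSC 0 of 3, beside 0.455%, and over the mean of the 3 populations 0 of 3, beside 2.82% of all genes. At an unadjusted p under 0.05 these comparisons had 0, 0 and 1 member, beside 8.74%, 18.5% and 16.4% of all genes, the last being Igha (1.01, SE 0.39, edgeR adjusted p = 0.169). DESeq2 called 0 members in EC, OBC, MSC and over the mean, beside 0.0188%, 0.986%, 0.0681% and 2.36% of all genes. In MSC the differences were 0.41 for Igha (SE 0.45), -0.46 for Igkc (SE 0.56) and 0.25 for Jchain (SE 0.63), with edgeR adjusted p of 0.666, 0.697 and 0.863. The interaction of genotype with population passed for 0 of 3 members in edgeR, beside 0.455% of all genes, and for 0 at an unadjusted p under 0.05, beside 8.37%. It was not run in DESeq2.

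Markers set the MSC and OBC libraries apart from the other niche populations, but those of endothelium did not set EC apart from MSC. All 5 tested mesenchymal genes were higher in MSC than in EC and OBC, and all 4 tested osteoblast genes were higher in OBC than in both others. Between MSC and EC, 0 of 4 tested endothelial genes passed in edgeR and 0 had an unadjusted p under 0.05, Cdh5 standing at -0.45 (SE 0.29). The plasma-cell list (13 genes in the table) summed to 347 to 532 CPM in MSC, 141 to 845 in OBC and 215 to 630 in EC, and the B-cell list (13 genes) to 20.3 to 285, 0 to 338 and 45.0 to 181. The ranges of both sums overlapped between the 3 populations, and no gene of either list passed the filter. Cd79a had at most 2 UMIs in any library. The part of admixed plasma cells in the niche Ig counts was not tested. In bulk samples fewer cells of a type and less RNA per cell cannot be told apart.

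Over the 18 niche libraries the genes most like the summed Ig level were Col3a1, Gsn, Dcn, Igfbp6, Smoc2, Pi16, Srgn and Fn1, with Spearman's rho from 0.635 to 0.893, of 1013 genes ranked. Several of these encode matrix proteins of mesenchyme, and the libraries of a population share both levels.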

How the data were processed

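The deposited tables hold whole-number counts per Ensembl gene, which the authors made with STAR and featureCounts on mm10 (GRCm38), per the submitters' processing notes. LSK values are read counts (Smart-seq2) and niche values UMI counts (UMI-seq), per the labels. The sources used here name no versions, annotation release, strand setting or UMI collapsing. Symbols came from a table of gene IDs (37607 of 38924 LSK and 17973 of 18194 niche IDs matched), and positions and sequences from GENCODE vM21 on GRCm38. In the niche data, 28 rows that name no gene (spike-in controls) were left out.

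The members, the marker lists and the rule for named genes were chosen with earlier results of these data known. That rule took the constant-region and J-chain genes, the leading V gene of each library with at least 20 V counts, the 8 V genes with most counts, members and list genes past a test, and the 8 other genes most like the summed Ig level by rank correlation. Members named for an unadjusted p, for a call in an alternative fit or for sequence were chosen after their values were seen. Some genes that these rules select are not reported here.

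Ig percentages are of plain totals, and gene CPM use TMM-scaled totals. The quasi-likelihood test of edgeR 4.0.16 (R 4.3.3) was fitted on the counts after its filter on low counts (minimum count 10, minimum total 15), once for the 11 LSK libraries and once for the 18 niche libraries with 6 group means, and the 3 populations were compared over both genotypes. A gene was called at 0.05 after Benjamini-Hochberg adjustment across every gene in the fit. The script was tested on simulated counts. Alternatives were DESeq2 1.42.0, other scaling, no filter, totals without Ig (LSK) or without haemoglobin and Ig (niche), 9 LSK libraries with title numbers of 4 digits, and leaving out each library.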

Additional observations from a re-analysis of the deposited data

Results flagged for a closer look

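Of 40 groups of 4 to 6 values tested for a single distant library, 8 had one. The rule flags about 1 in 20 groups of independent, normally distributed values. The groups here share libraries and reads, and CPM values are skewed, so the 8 cannot be set against that rate. In LSK Wnt5a, replicate 5 stood far above the other 4 libraries in 5 of these. Its Ig share was 10.2%, Jchain 20927 CPM, Igkc 17539 CPM, Igha 5301 CPM and Ighg3 11.8 CPM. The same library had the highest level of the 11 LSK libraries for 13 of 14 plasma-cell genes and for 3 of 13 B-cell genes, and 0 reads for 5 of the 13. In LSK WT, replicate 5 was far above the other 5 libraries in Ighg3, at 195 CPM, and in the IgG share of heavy constant reads, at 14.4%. In LSK WT, Ighe stood at 0.697 CPM in replicate 6, which is 2 reads, and at 0 in the other 5 libraries.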

How the results depend on the processing

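No paired analysis was possible because the LSK labels number no replicate and the niche title numbers 1 to 18 are all different, so no groups share a number. In LSK, DESeq2 called 3 members, the 9 libraries with 4-digit title numbers 2, and leaving out 1 library gave 0 to 7. The share of positive differences was 6.67% over those 9 libraries and 15% to 88.4% with 1 library left out. Over those 9 libraries Igha (-0.47), Igkc (-1.04), Iglc2 (-0.26) and Jchain (-0.79) reversed on the log2 scale. With 1 LSK library left out Igkc ran from -0.55 to 1.40 and Jchain from -0.12 to 1.67, both negative without Wnt5a replicate 5 only. In the niche, without the low-count filter 5 members were called between MSC and EC, 4 between MSC and OBC and 0 between OBC and EC, the last also in DESeq2. With 1 library left out the calls were 1 to 4 between MSC and OBC and 0 to 1 between OBC and EC. For genotype they were 0 to 1 in EC (1 without EC WT replicate 15) and 0 to 1 over the niche mean (1 without EC WT replicate 15 or EC Wnt5a replicate 17), in each case Igha. Beside the EC call without EC WT replicate 15 stand 1.98% of all genes. For the other niche counts with 1 library left out or no filter, that share is not given here, so they are descriptions only. In the main fit 3.55% of all genes passed between MSC and EC, 32.3% between MSC and OBC and 48.0% between OBC and EC. Genotype differences that reversed with 1 library left out were, in OBC, Igha (-0.093 to 1.43), Igkc (-1.41 to 0.91) and Jchain (-0.57 to 1.22). In MSC they were Igha (-0.20 to 0.43), Igkc (-0.98 to 0.24) and Jchain (-0.28 to 1.15), and over the niche mean Igkc (-0.21 to 0.54). None of these passed in edgeR. The cause of these changes was not tested. Under RLE scaling the median over all genes shifted by -0.22 for genotype in MSC and by -0.11 between OBC and EC. With at least 3 reads required, a median of 122 V genes was detected in WT and 119 in Wnt5a. The median leading share was 60.2% in WT and 50% in Wnt5a for lambda V genes alone, and 10.1% and 11.7% for heavy V genes alone. The interaction was not run in DESeq2. OBC libraries hold 3 to 13 Ig UMIs, so differences there were detectable only if large.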
